A study of Rattus norvegicus with 6 samples.

Results

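The interferon response genes described here are 9 genes chosen by symbol, namely Stat2, Irf1, Irf7, Irf9, Isg15, Ifit3, Mx1, Mx2 and Ifih1. They were looked up in a table of 18930 genes, in which 8 of the 9 symbols had a row, and 5 of these 8 had enough reads to be tested. No row carried the symbol Isg15, so this gene is not analysed here. A further 2871 rows carried only an Ensembl ID and could not be matched to a symbol. RNA came from NRK-52E cells, an established epithelial line from the rat kidney with the genotype given as WT. A group of 3 Control samples was set against 3 STZ samples, which had been exposed to streptozotocin (STZ) at 10 mM for 24 h. According to the study, the cells compared with STZ-treated cells received vehicle. STZ is a nitrosourea that alkylates DNA. The cells are 1 line in culture, and the sources do not say whether the 3 samples of a group were separate cultures, so p-values measure the spread between these samples. In bulk RNA, fewer cells that express a gene and less RNA per cell cannot be told apart.

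Interferons are secreted proteins that warn neighboring cells of infection. Type I interferons bind the receptor IFNAR1/IFNAR2, and the kinases JAK1 and TYK2 then act on STAT2, which works with IRF9 in the factor ISGF3. ISGF3 binds the interferon-stimulated response element (ISRE) in genes that block viral replication, while type II interferon acts through the gamma-activated site (GAS). IRF1 and IRF7 are transcription factors whose own genes respond to interferon, and IRF7 drives the transcription of interferon genes. Ifih1 encodes MDA5, a sensor of double-stranded RNA in the cytosol.

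These elements are shown because they are the DNA sequences through which the pathway acts. RefSeq promoter windows of the GRCr8 build, each 300 bases long and reaching from 250 bases before a gene's start to 50 bases after it, were at hand for 7 of the 9 genes. They were searched for the ISRE core GAAANNGAAA, which reads TTTCNNTTTC on the other strand, and for the GAS letters TTCNNNGAA, which read the same on both strands. The ISRE core was present in 3 of the 7 windows, those of Irf7, Ifih1 and Ifit3, and in 3.77% of 27457 RefSeq windows. The GAS letters were present in 2 of the 7, those of Irf1 and Irf9, and in 8.68% of all windows. Each match is printed along the gene's own strand, with the matched letters in capitals; the 5 matches lie in 5 different windows, so none overlaps another.
Irf7, ISRE core at chr1:205800073-205800102, minus strand: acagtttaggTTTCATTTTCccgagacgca
Ifih1, ISRE core at chr3:67684008-67684037, minus strand: gaagagaatcGAAACAGAAAccgatgtgtg
Ifit3, ISRE core at chr1:241527272-241527301, plus strand: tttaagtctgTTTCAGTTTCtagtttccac
Irf1, GAS at chr10:38417783-38417811, plus strand: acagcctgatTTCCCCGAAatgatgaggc
Irf9, GAS at chr15:33065727-33065755, plus strand: accacgtgatTTCTAGGAActgcacctcc
The first matched base lay 69, 59, 44, 142 and 99 bases before the start in this order. The windows of Irf7 and Irf9 lie inside the span that RefSeq gives these genes, so other transcripts may start further upstream. No match of either kind was found in the windows of Stat2 and Mx1. A match of letters is a description of the sequence and shows no binding.

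Levels are given as CPM, reads scaled by edgeR's TMM method to a common library size. The groups were compared with the quasi-likelihood method of edgeR, and p-values were adjusted by Benjamini-Hochberg across the 11870 genes with enough reads. Of the 5 interferon response genes tested, 2 rose in STZ-treated cells at an adjusted p-value under 0.05, Irf7 and Irf1. Of all genes tested, 25.9% were higher and 25.1% lower at that threshold. Separate groups were common: every STZ sample lay above every Control sample in 28.6% of all genes tested, and below in 27.7%. Irf7 also passed the log2 fold change threshold of 1, as did 2.26% of genes in the higher direction and 1.11% in the lower direction. None of the 5 was lower in edgeR's quasi-likelihood test, with 0 at an unadjusted p under 0.05 and 0 by DESeq2, edgeR's likelihood ratio test and limma-voom. The median log2 fold change of the 5 was 0.086, beside -0.006 over all genes tested.

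Irf7 had the largest change of the 5 genes. Its level was 20.5, 21.6 and 18.5 CPM in the Control samples and 54.5, 52.7 and 51.3 CPM in the STZ samples. The groups did not overlap, and the lowest STZ sample lay far above the highest Control sample. The mean was 20.2 ± 1.597 CPM in Control (SD, n = 3) and 52.85 ± 1.61 CPM in STZ (SD, n = 3). The log2 fold change was 1.39 (SE 0.071; edgeR adjusted p = 2e-20), a 2.62-fold rise with a 95% interval of 2.38 to 2.90. Of the 11870 genes tested, 133 had a higher log2 fold change.

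Irf1, a tumor-suppressing factor that binds elements much like the ISRE, rose less. Its level was 46.3, 42.7 and 43.4 CPM in Control and 62.1, 58.9 and 57.5 CPM in STZ. All STZ samples lay above all Control samples. The means were 44.1 ± 1.90 and 59.5 ± 2.34 CPM (SD, n = 3 each), and the log2 fold change was 0.43 (SE 0.059; edgeR adjusted p = 4.5e-08). The 95% interval of its fold, 1.24 to 1.46, did not reach that of Irf7.

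Stat2 did not pass the test, and Irf9 had too few reads for it. Stat2 had 76.45, 70.75 and 69.6 CPM in Control and 67.0, 72.1 and 62.9 CPM in STZ. Its groups overlapped, since the second STZ sample lay above Control samples 2 and 3. The log2 fold change was -0.10 (SE 0.055; edgeR adjusted p = 0.11), with a 95% interval from -0.215 to 0.008. Without STZ replicate 2 it was -0.15 and passed the threshold (adjusted p = 0.036), as it did with library size as the only scaling (log2 fold change -0.14, adjusted p = 0.036). Irf9, the DNA-binding subunit of ISGF3, had 1, 5 and 5 reads in Control and 2, 3 and 2 reads in STZ, and the groups overlapped. Whether these few reads reflect the cells or the gene models used for counting was not tested.

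**Figure D1:**
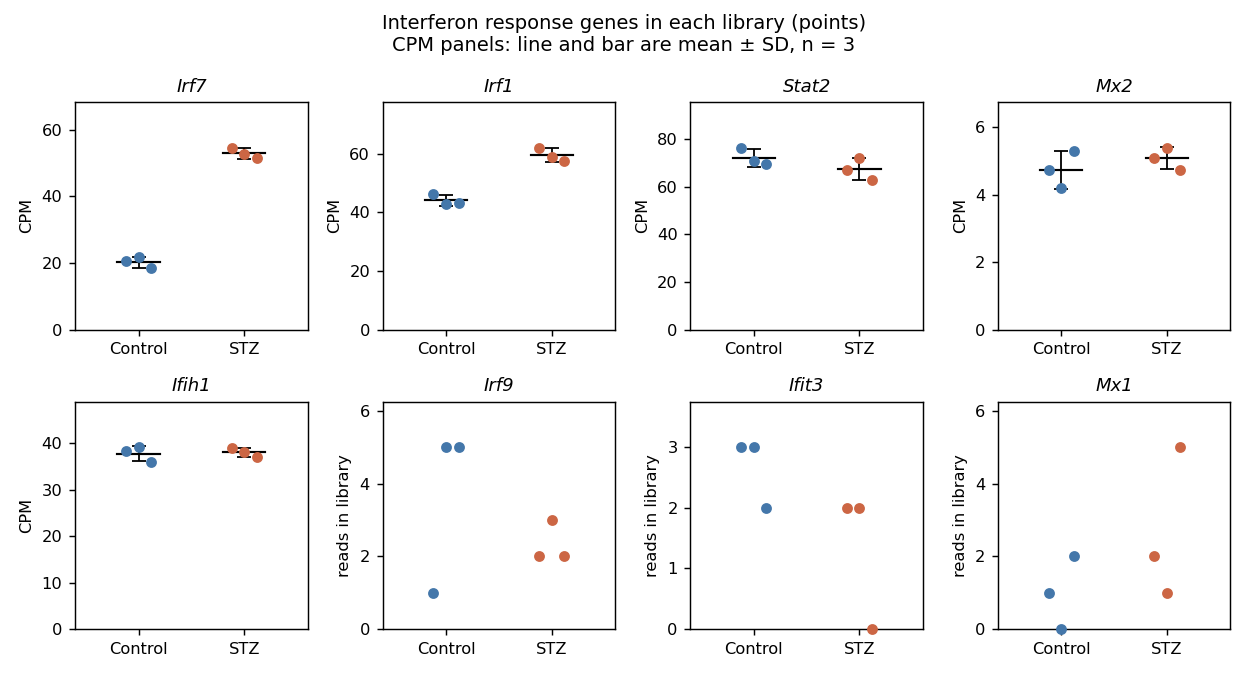
Level of the 8 interferon response genes with a row, in each Control and STZ sample; the vertical axes are CPM for the 5 genes tested and reads per library for Irf9, Ifit3 and Mx1, and every axis starts at 0. Points are samples, and in the CPM panels the line and bar are the mean ± SD (n = 3). Irf7 and Irf1 show STZ samples all above Control, as do 28.6% of all genes tested. The other 6 genes do not show separate groups, and the 3 genes in reads never exceed 5.

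Ifih1, the sensor, did not pass the test. It had 38.3, 39.2 and 36.0 CPM in Control and 39.1, 38.1 and 37.0 CPM in STZ, so the groups overlapped. The log2 fold change was 0.01, with a 95% interval from -0.12 to 0.14 (edgeR adjusted p = 0.9), which corresponds to folds from 0.92 to 1.10. The sign of its log2 fold change turned with library size as the only scaling (-0.02) and with upper-quartile scaling (-0.01).

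The effectors had few reads in both groups. Mx1 and Mx2 encode dynamin-like GTPases that trap viral nucleoproteins. Mx2 had 4.71, 4.18 and 5.30 CPM in Control and 5.09, 5.39 and 4.74 CPM in STZ, and the groups overlapped. Its log2 fold change was 0.09, with a 95% interval from -0.256 to 0.428 (edgeR adjusted p = 0.7). Mx1 had 1, 0 and 2 reads in Control and 2, 1 and 5 in STZ. Ifit3, which encodes a protein that helps to hold back viral RNA from translation, had 3, 3 and 2 reads in Control and 2, 2 and 0 in STZ.

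For the 3 genes too low to be tested, the reads of each group were summed and the ratio of STZ to Control, scaled for depth, was given an exact binomial interval at 95%, which covers counting error only. Irf9 had 11 reads in Control and 7 in STZ, a ratio of 0.544 (0.179 to 1.54). Ifit3 had 8 and 4 reads, a ratio of 0.428 (0.0942 to 1.6). Mx1 had 3 and 8 reads, a ratio of 2.28 (0.547 to 13.3). Each interval includes 1, so a difference was not detectable at this depth. The intervals of Irf9 and Ifit3 end below the 2.62-fold rise of Irf7, whereas that of Mx1 does not.

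**Figure D2:**
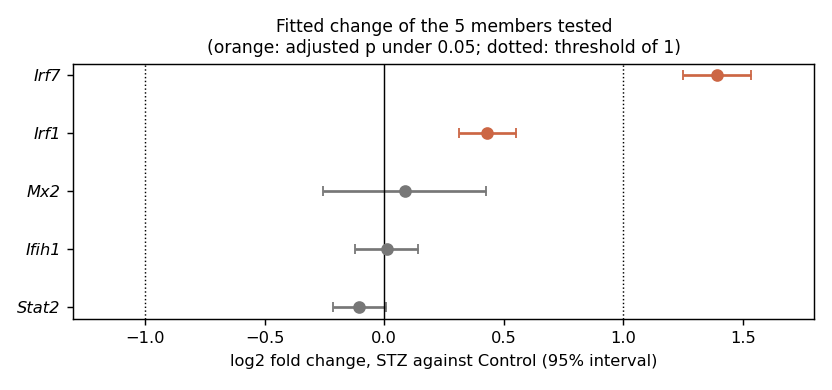
Log2 fold change of STZ against Control for the 5 interferon response genes tested, with 95% intervals from edgeR's quasi-likelihood fit; orange marks an adjusted p-value under 0.05, and dotted lines mark the fold-change threshold of 1 in either direction. Irf7 (1.39) lies beyond the threshold, Irf1 (0.43) lies between 0 and 1, and the intervals of Mx2, Ifih1 and Stat2 cross 0.

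To place these genes in their pathway, 133 other symbols were grouped by role. Of these, 107 had a row (Oas1k had 2), and 90 rows were tested. In edgeR's test, 53 of the 90 passed the adjusted p threshold and were higher in STZ, or 58.9% beside 25.9% of all genes tested, and 6 were lower, or 6.67% beside 25.1%. The median log2 fold change was 0.21. Both thresholds were passed by 9 higher genes and 1 lower gene of the 90, beside 2.26% and 1.11% of all genes tested. Of the 90, 2 had 10 reads or more only in STZ samples and passed the filter through that group; without them 51 of 88 were higher, 8 higher genes passed both thresholds and the median was 0.20. Ifi27l2b (9, 10 and 6 reads in Control) and Aim2 (4, 4 and 12) also needed the STZ samples to pass the filter, and they remain in these counts. The lists were chosen with earlier results in view, so these shares are a description. The ISRE core was present in 42 of 101 promoter windows of these genes (41.6%), in 21 of 43 windows of the higher genes (48.8%) and in 10 of 27 windows of genes that did not pass (37.0%). The GAS letters were present in 21 of 101 (20.8%), in 8 of 43 (18.6%) and in 5 of 27 (18.5%). Neither difference was tested.

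At the start of the pathway, of 12 interferon genes looked up by symbol, only Ifne, an epithelial interferon, had a row, with 2 to 6 reads per sample. The other 11 are not analysed here, and rows with only an Ensembl ID could not be searched for them. Among 8 receptor and kinase genes tested, 2 were higher (25%), 1 was lower (12.5%) and 5 did not pass. Of all genes tested, 25.9% were higher and 25.1% lower. Tyk2, with the smallest p, rose from 63.4 ± 1.11 to 76.1 ± 2.88 CPM (SD, n = 3 each), or 0.26 in log2 fold change (edgeR adjusted p = 4.8e-05). The other higher gene was Ifnar2 (log2 fold change 0.23), and the lower one was Jak2 (-0.20).

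Among the other STAT and IRF factors, 3 of 8 tested were higher (37.5%, beside 25.9% of all genes) and 1 was lower (12.5%, beside 25.1%). Irf8, a factor best known from myeloid cells, had 1.414, 1.0 and 0.936 CPM in Control and 2.33, 2.26 and 4.07 CPM in STZ. STZ replicate 3 stood above the others, and every STZ sample lay above Control. The log2 fold change was 1.40 (SE 0.293; edgeR adjusted p = 9.5e-05), with Control samples at 11 to 15 reads and STZ samples at 26 to 61. Irf5 and Stat3 also rose (log2 fold changes 0.67 and 0.14), and Stat5a fell (-0.30), whereas Irf3, which acts with Irf7 on interferon genes, had a log2 fold change of 0.03 (edgeR adjusted p = 0.72).

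Among nucleic acid sensors and their adaptors, 8 of 12 tested rose (66.7%, beside 25.9% of all genes) and 4 did not pass. Tlr3, a receptor for double-stranded RNA in endosomes, had the smallest p. It had 43.1, 40.3 and 41.8 CPM in Control and 56.3, 58.6 and 55.7 CPM in STZ, a log2 fold change of 0.445 (edgeR adjusted p = 2.6e-08). Dhx58 and Ddx58, relatives of Ifih1 that encode LGP2 and RIG-I, rose by log2 fold changes of 0.73 and 0.185, and their difference from Ifih1 was not tested. Sting1 rose from 10 to 14 reads per Control sample to 22 to 33 per STZ sample (log2 fold change 0.93), and Cgas, which makes its ligand, had a log2 fold change of 0.03 (edgeR adjusted p = 0.83). Aim2, a DNA sensor with 4 to 17 reads per sample, passed both thresholds narrowly with overlapping groups (log2 fold change 1.0; edgeR adjusted p = 0.035). With 4, 4 and 12 reads in Control, Aim2 passed the filter only with the STZ samples, so its values are a description. It did not pass the adjusted p threshold without Control replicate 1 (log2 fold change 0.79, adjusted p = 0.14), Control replicate 2 (0.77, 0.16), STZ replicate 1 (0.96, 0.089) or STZ replicate 2 (0.89, 0.11), and its log2 fold change was 1.63 without Control replicate 3.

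**Figure D3:**
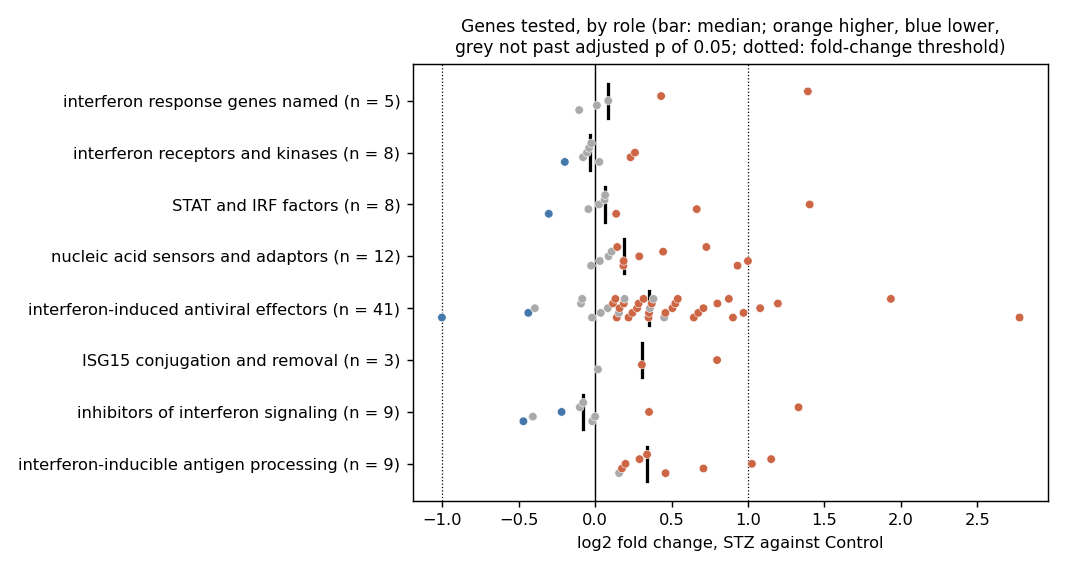
Log2 fold change of STZ against Control for each gene tested, grouped by role in the interferon pathway, with the median of each group as a bar. Orange points were higher, blue points lower and gray points not past an adjusted p-value of 0.05; antiviral effectors (median 0.35) and antigen processing genes (median 0.34) lie mostly to the right of 0, and receptors and kinases (median -0.03) lie around it.

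The antiviral effectors held the widest range of changes. Of 41 rows tested, 28 were higher (68.3%, beside 25.9% of all genes), 2 were lower (4.88%, beside 25.1%) and 11 did not pass. The median log2 fold change was 0.35. Ifitm3, which blocks the entry of enveloped viruses, had 65.1, 66.5 and 61.1 CPM in Control and 132.5, 136.5 and 138.0 CPM in STZ, a 2.11-fold rise (log2 fold change 1.08, edgeR adjusted p = 2.4e-22). Its groups were tight and well apart. Ifi27l2b had 9, 10 and 6 reads in Control and 66, 59 and 78 in STZ, a log2 fold change of 2.78 (SE 0.265). Its Control reads alone would not have passed the filter, so these values are given as a description. Cxcl10, a chemokine that draws T cells, had 3.77, 4.18 and 3.74 CPM in Control and 9.45, 7.21 and 9.88 CPM in STZ (log2 fold change 1.196, edgeR adjusted p = 3.3e-08). Oasl, which passed the filter through the STZ samples alone, had 4, 6 and 2 reads in Control and 15, 12 and 28 in STZ, given as a description.

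Ifit1 was the 1 pathway gene of 90 tested past both thresholds in the lower direction, as were 1.11% of all genes tested. Its protein binds the ends of viral RNA and forms complexes with that of Ifit3. Ifit1 had 2.45, 1.73 and 2.26 CPM in Control and 1.16, 1.04 and 1.001 CPM in STZ. All STZ samples lay below all Control samples, and the log2 fold change was -1.002 (SE 0.29; edgeR adjusted p = 3.6e-03). Its fold change sat at the threshold and fell short of it without Control replicate 1 (-0.91), Control replicate 3 (-0.96), STZ replicate 2 (-0.99) or STZ replicate 3 (-0.95), when each sample had to hold at least 10 counts (-0.998), with limma-voom (-0.976) and after thinning to the smallest total (-0.913), though the adjusted p stayed under 0.05. Ifit1bl had a log2 fold change of -0.39 that did not pass (edgeR adjusted p = 0.066), and Ifit2 had at most 2 reads in a sample. Samhd1, which degrades nucleotides needed by viruses, was the other effector that fell (log2 fold change -0.44).

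Genes that attach or remove ISG15 were looked up although no row carried the symbol Isg15. Usp18, the protease that removes ISG15 and restrains IFNAR2, had 9.05, 10.7 and 9.83 CPM in Control and 16.7, 16.8 and 17.95 CPM in STZ. All STZ samples lay above Control, as in 28.6% of all genes tested, and the log2 fold change was 0.80 (edgeR adjusted p = 2.7e-08). Of 3 genes tested in this role, 2 were higher (66.7%, beside 25.9% of all genes) and 1 did not pass. Uba7, which activates ISG15, rose by 0.31, and Ube2l6, which conjugates it, had a log2 fold change of 0.02 (edgeR adjusted p = 0.84).

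Of 9 inhibitors of the pathway, 2 were higher (22.2%), 2 were lower (22.2%) and 5 did not pass the threshold. These shares were near those of all genes tested, 25.9% higher and 25.1% lower. Ptpn6, which encodes the phosphatase SHP-1, had 11.03, 10.0 and 10.5 CPM in Control and 25.6, 27.45 and 26.5 CPM in STZ, a 2.52-fold rise (log2 fold change 1.33, edgeR adjusted p = 6.3e-16). Pias3, an inhibitor of STAT3, rose by 0.35. Socs3, a feedback inhibitor of JAK kinases, was lower, at 79.55 ± 1.78 CPM in Control and 57.5 ± 0.671 CPM in STZ (SD, n = 3 each). Ptpn2 was also lower, with a log2 fold change of -0.22.

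Genes of antigen processing that interferon can induce were higher in 8 of 9 cases tested, beside 25.9% of all genes, with a median log2 fold change of 0.34. Psmb8, a subunit of the immunoproteasome, did not pass (log2 fold change 0.16, edgeR adjusted p = 0.22). B2m, the light chain of MHC class I, had 649.3, 691.5 and 627.7 CPM in Control and 1056, 1047 and 1112 CPM in STZ, a 1.63-fold rise with the smallest p of this group (log2 fold change 0.71, edgeR adjusted p = 6.1e-20). Tap1, which carries peptides into the endoplasmic reticulum, had a log2 fold change of 1.15. Nlrc5, the activator of MHC class I genes, had a log2 fold change of 1.03, which was under 1 without Control replicate 2 (0.946), Control replicate 3 (0.945) or STZ replicate 2 (0.98), with library size as the only scaling (0.99) and after thinning (0.98).

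**Figure D4:**
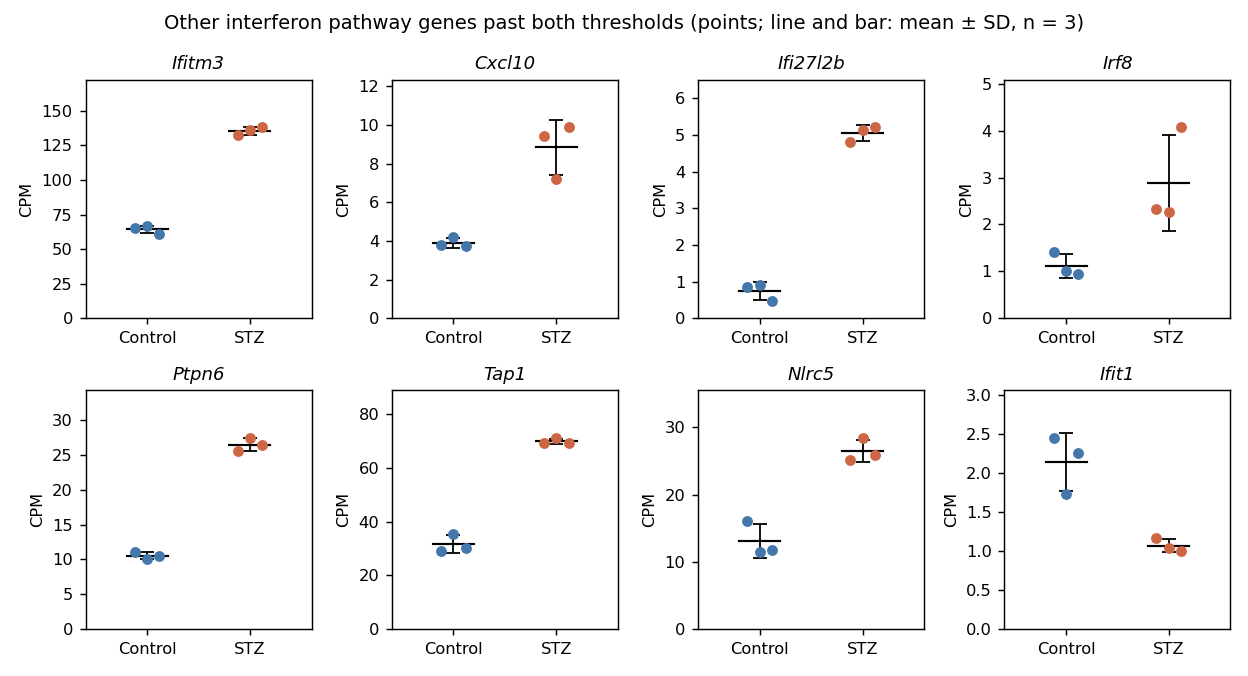
CPM in each sample for 8 of the 10 other pathway genes that passed both thresholds (Oasl and Aim2 are left out for their few reads), with every axis starting at 0. Points are samples and the line and bar are the mean ± SD (n = 3). In 7 panels all STZ samples lie above Control, and in the Ifit1 panel all lie below. Of all genes tested, 28.6% have all STZ samples above Control and 27.7% all below.

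When each gene's log2 CPM was standardised over the 6 samples and the 5 were averaged, the mean lay between -0.562 and -0.036 in Control and between -0.207 and 0.682 in STZ, so the groups overlapped at STZ replicate 3 and Control replicate 1. The genes most like this average, by Pearson correlation over 6 samples that form 2 groups and with no test, were Lmo1 (0.990), Thnsl2 (0.988), Parp14 (0.986), Bambi (0.976) and Dusp14 (0.974). Of these, Parp14, an interferon-induced ADP-ribosyltransferase, was among the effectors above, with a log2 fold change of 0.14.

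Total counts per sample ran from 10430924 to 15191349. Of the 7 white blood cell markers with a row, 5 had under 10 reads in every sample. Ptprc, which marks all of these cells, had at most 1 read, and the summed level of the 7 was 102 to 105 CPM in Control and 122 to 129 CPM in STZ, nearly all of it Cd14 (log2 fold change 0.26). Whether Cd14 has a part in the changes was not tested. Of 5 endothelial markers, 4 had under 10 reads in every sample, and the 5 together had 2.64 to 4.15 CPM in Control and 1.65 to 2.4 CPM in STZ. Vwf was lower in STZ (36, 24 and 29 reads in Control and 22, 6 and 19 in STZ, log2 fold change -1.15, edgeR adjusted p = 0.0013). Kdr, too low to be tested, had 0, 2 and 1 reads in Control and 6, 9 and 7 in STZ. Of 4 epithelial markers with a row, Krt8 had 1149 ± 40.7 CPM in Control and 1604 ± 8.05 CPM in STZ (SD, n = 3 each), Cdh1 was lower in STZ (32, 22 and 35 reads in Control and 23, 25 and 16 in STZ, log2 fold change -0.69, edgeR adjusted p = 0.03), and Krt18 and Cldn4 had at most 4 reads. Whether the few reads of Krt18 reflect the cells or the gene models used for counting was not tested.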

How the data were processed

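RNA of 3 Control and 3 STZ samples was sequenced from stranded mRNA libraries as single-end reads. The authors aligned them to Rnor6 with STAR 2.7.10a and deposited raw counts of uniquely mapped reads from featureCounts; the strand setting and annotation release are not given in the sources used here. Reads that map to several near-identical genes (Mx, Ifit, Oas and Ifitm families) are not in these counts, so levels of such genes are uncertain. In the GRCr8 annotation no other gene overlaps any of the 9 genes.

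Counts were filtered with filterByExpr, scaled by TMM (factors 0.988 to 1.02) and tested with edgeR 4.0.16 in R 4.3.3 by the quasi-likelihood test. The common biological coefficient of variation was 3.25%. Both thresholds means adjusted p under 0.05 together with a log2 fold change above 1 or below -1. The SE was taken from the size of the log2 fold change over the root of F. Genes were named by rule: the 9 genes, and in each role the gene with the smallest p and those past both thresholds; other genes were named after their values were seen. The 9 genes and the role lists were chosen with earlier results of these data known. With 3 samples against 3, an exact permutation test cannot give a p under 0.1, so none was run. CPM rest on TMM-scaled library sizes; levels are not comparable between genes, since they are not per length. The alternatives were 3 filters, 3 scalings, 3 tests (DESeq2 1.42.0, edgeR's likelihood ratio test, limma-voom 3.58.1), the replicate number as a block, libraries thinned to the smallest total, and each sample left out. The steps were tested on simulated data.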

Additional observations from a re-analysis of the deposited data

How the results depend on the processing

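The count of 2 higher genes among the 5 tested, Irf7 and Irf1, and of 1 past both thresholds was the same under every alternative run. The log2 fold change of Irf7 was 1.33 to 1.44 and that of Irf1 0.402 to 0.465 with one sample left out. The count of lower genes, 0, was 1 with library size only and 0 to 1 with one sample left out; this gene was Stat2, and the cause was not tested. The sign of Ifih1 (log2 fold change 0.012) reversed with library size only (-0.022), the upper quartile (-0.007), thinning (-0.009), and without Control replicate 3 (-0.027) or STZ replicate 1 (-0.006), with no call in any of these; leaving out single samples gave -0.027 to 0.037. The median of the 5 genes, 0.086, was 0.165 after thinning and 0.183 without Control replicate 3. Of the other pathway genes, 43 to 54 were higher and 6 to 7 lower over the alternatives. Aim2 lost its call with no filter (adjusted p = 0.051), at least 0.5 CPM in 1 sample (adjusted p = 0.055) and DESeq2's Wald test (adjusted p = 0.12). With library size only (log2 fold change 0.967), the upper quartile (0.982) and DESeq2 size factors (just under the threshold, 1.0 when rounded) it kept an adjusted p under 0.05 and missed the fold threshold. Genes called in the whole table were 400, with 585 without a filter, 565 with the CPM filter and 249 when every sample had to hold at least 10 counts, which tests fewer genes and leaves out Aim2, Ifi27l2b and Oasl.

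Same-numbered Control and STZ samples deviated from their group means with correlations of 0.0324, -0.0378 and 0.105 across 10341 genes. Each value rests on 1 pair of samples, so they cannot decide whether same-numbered samples were paired. Under the replicate block, 2 of the 5 genes and 54 other pathway genes were higher and 398 genes were called in the whole table, and no call of a named gene changed. Irf9, Ifit3 and Mx1 had at most 5 reads in a sample, which limits their comparison.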
